A study of Mus musculus with 2 samples.

Results

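The Cyp3a genes of the mouse encode cytochrome P450 enzymes, and 7 of them (Cyp3a11, Cyp3a13, Cyp3a16, Cyp3a25, Cyp3a41a, Cyp3a41b and Cyp3a44) were examined in the liver of newborn pups. They were chosen by name, and all 7 were found among the 43346 genes listed in the deposited tables. RNA was sequenced from the livers of 2 pups of strain B6NCrl on postnatal day 0, replicate 2 being pup 3 and replicate 1 being pup 1. The input was tissue RNA (13 pg, molecules above 200 nt, called 1 cell-equivalent), to which spike-in RNAs were added, and cDNA was amplified by a SmartSeq protocol. The labels name no treatment, sex is recorded as not collected, and both animals carry the same donor entry. The 2 libraries form 1 group, so levels and their spread are given, as mean ± SD with n = 2, and no test between conditions was possible.

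CYP3A enzymes sit in the endoplasmic reticulum of hepatocytes and enterocytes and oxidise steroids, bile acids and many drugs. They receive electrons from the P450 reductase Por, helped by cytochrome b5, and carry a heme group. In the liver their genes are known targets of the xenobiotic receptors PXR (Nr1i2) and CAR (Nr1i3), which bind DNA together with Rxra. The set of CYP3A enzymes that the liver makes is known to change around birth in mice and in humans.

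Depth was 35973980 expected counts in the library of pup 3, against 56959836 in that of pup 1. Levels are in TPM, the length-corrected share of each gene among all transcripts, rescaled to a total of 1000000 after spike-ins were taken out. Hepatocyte identity was clear, with all 8 hepatocyte markers checked at 1 TPM or more in both libraries and summing to 116629 TPM in pup 3, against 150045 TPM in pup 1. Fetal hepatocyte markers such as Afp summed to 15067 and 13830 TPM in pups 3 and 1. The liver of this age also holds blood-forming cells, and 5 erythroid markers summed to 70340 TPM in pup 3, against 55813 TPM in pup 1. No count was listed for the 11 kidney, lung and pancreas markers in either library. These are tissue RNA values, in which fewer hepatocytes and less RNA per hepatocyte cannot be told apart.

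Of the 7 Cyp3a genes, 5 stood at 1 TPM or more in both libraries, against 8.2% of all listed genes, 14.9% of protein-coding genes and 46.3% of the genes that reached 1 TPM in either library. Cyp3a11 was the most abundant in each pup. Cyp3a25, Cyp3a13, Cyp3a41a and Cyp3a44 followed by mean level, Cyp3a16 stayed under 1 TPM in both libraries, and Cyp3a41b was listed at 0. The lower value of Cyp3a11, 564 TPM, lay above the higher value of Cyp3a25, 311 TPM. Below that the order was not fixed, since the ranges of Cyp3a25 and Cyp3a13, of Cyp3a13 and Cyp3a41a, and of Cyp3a41a and Cyp3a44 overlapped. A clear step separated Cyp3a44, with a lowest value of 20.4 TPM, from Cyp3a16, with a highest value of 0.646 TPM.

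**Figure D1:**
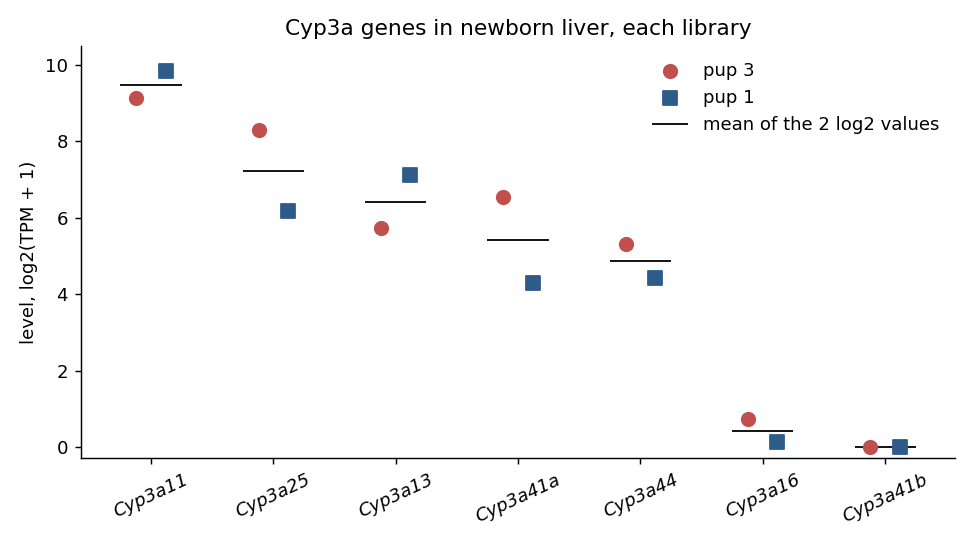
Level of each Cyp3a gene as log2(TPM + 1) in pup 3 (red circles) and pup 1 (blue squares), ordered by mean TPM, with a black line at the mean of the 2 log2 values. Cyp3a11 is highest in both pups, each neighbouring pair among the 4 genes between it and Cyp3a16 has overlapping ranges, and Cyp3a41b lies at 0.

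Cyp3a11, the main CYP3A enzyme of adult mouse liver, lies on chromosome 5 at 145854426 to 145879964 of GRCm38 on the minus strand. It had 36239 expected counts (564 TPM) in pup 3, against 85364 expected counts (911 TPM) in pup 1, a mean of 737 ± 246 TPM. It ranked 210th in pup 3 and 118th in pup 1 among all listed genes by TPM. The level was lower in pup 3 by a log2 ratio of -0.69, and the median absolute log2 ratio of the 316 genes with a mean of 300 to 1000 TPM was 0.54. Its transcript Cyp3a11-201 has 13 exons and 2344 nt, of which 1512 nt code for protein. Of its 2245 stretches of 100 bases, the read length implied by the tables, 99.7% occurred in no transcript of another gene in GENCODE M21, so its value depends little on how reads were divided among copies.

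Cyp3a25, another CYP3A gene of liver, lies to the right of Cyp3a11 at 145977194 to 146009618 on the minus strand. It had 16563 expected counts (311 TPM) in pup 3, against 5508 expected counts (70.9 TPM) in pup 1, a mean of 191 ± 170 TPM. Pup 3 was thus 4.39-fold higher (log2 ratio 2.12), where the median absolute log2 ratio of the 677 genes at 100 to 300 TPM was 0.76. The gene is the only one of the 7 with more than 1 listed transcript, and 2 of its 4 transcripts carried nearly all of its signal. The protein-coding transcript Cyp3a25-201 took 51.2% of the gene's TPM in pup 3, against 53.8% in pup 1. The transcript Cyp3a25-203, annotated as a substrate of nonsense-mediated decay (the pathway that removes mRNAs with an early stop codon), took 48.6% in pup 3, against 46.1% in pup 1. The division between them was thus nearly even in both pups, with 52.5 ± 1.82% for the coding form, although the gene's level differed more than 4-fold.

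The transcripts differ mainly by exon 6 of 13, a coding exon of 89 bases at chr5:145993273-145993361 (GRCm38, minus strand) that Cyp3a25-203 skips. It is shown because it is the main difference between the forms, which otherwise differ by a few bases at their ends. Its length leaves a remainder of 2 when divided by 3, so skipping it shifts the reading frame, and the annotated coding length is 1509 nt in Cyp3a25-201 and 447 nt in Cyp3a25-203.
Cyp3a25 exon 6: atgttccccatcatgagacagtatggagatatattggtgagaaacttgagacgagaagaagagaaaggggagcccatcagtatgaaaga
For Cyp3a25-203 the deposited posterior SD was 226 counts around an expected count of 7874 in pup 3, and 116 around 2479 in pup 1. The deposited bounds of its level ran from 140 to 158 TPM in pup 3 and from 29.2 to 35.8 TPM in pup 1. The other transcripts of the gene, Cyp3a25-202 and Cyp3a25-204, took 0% and 0.16% of its TPM in pup 3, against 0% and 0.11% in pup 1.

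Cyp3a13 is the member outside the cluster, at 137892932 to 137921619 on the same chromosome, 7.51 Mb from the nearest of the other 6. In mice its enzyme is known from the intestine as well as the liver. It had 4246 expected counts (51.9 TPM) in pup 3, against 16454 expected counts (138 TPM) in pup 1, a mean of 94.9 ± 60.9 TPM. The level was 2.66-fold higher in pup 1 (log2 ratio of pup 3 over pup 1, -1.39), and the 1822 genes at 30 to 100 TPM had a median absolute log2 ratio of 1.27. All of its 100-base stretches belonged to it alone, and the deposited posterior SD of its count was 0 in both libraries. The 10 intestinal epithelium markers summed to 53.8 TPM in pup 3, against 139 TPM in pup 1. Of these, 7 had no count in either library, among them Vil1, Cdx1, Cdx2 and Sis. Fabp2 had 53.8 TPM in pup 3, against 59.0 TPM in pup 1, and Lgals4 and Krt20 were counted in pup 1 alone (40.5 and 39.3 TPM). Detection in 1 library alone was common at such levels. Of all genes with a mean of 10 to 30 TPM, the range of Lgals4 and Krt20, 71.0% were under 1 TPM in 1 library.

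Cyp3a41a and Cyp3a41b are near-identical copies, at 145694049 to 145720136 and 145558664 to 145584730, both on the minus strand. In adult mice Cyp3a41 is known as a female-predominant liver enzyme, a steroid hydroxylase of the family. All of the signal of the pair was assigned to Cyp3a41a. It had 5154 expected counts (92.3 TPM) in pup 3, against 1517 expected counts (18.6 TPM) in pup 1, a mean of 55.5 ± 52.1 TPM and a log2 ratio of 2.25. The 1822 genes at 30 to 100 TPM had a median absolute log2 ratio of 1.27, and 57.6% of them differed 2-fold or more. Cyp3a41b had 0 expected counts in both libraries, a value that comes from dividing shared reads and does not by itself show absence. The deposited upper bounds of its level were 0.493 TPM in pup 3 and 2.91 TPM in pup 1.

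How firmly the copies can be told apart follows from their sequence. The coding sequences are 99.9% identical, and over whole transcripts they differ by 2 mismatched bases and 4 gapped bases. Of the 100-base stretches of Cyp3a41a only 9.18% (180 of 1961) occurred in no other gene, and of those of Cyp3a41b 11.8% (231 of 1965). Both coding differences are synonymous. Counted from the first base of the start codon, with the base of Cyp3a41a first, they are G120A in exon 2 and G336T in exon 5. The window around G120A lies at chr5:145717940-145718000 in Cyp3a41a and chr5:145582530-145582590 in Cyp3a41b (GRCm38, minus strand). The same coding bases 90 to 150 are given for the 3 most similar genes, with capitals where a base differs from Cyp3a41a.
Cyp3a41a: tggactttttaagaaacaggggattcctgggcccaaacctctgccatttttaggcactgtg
Cyp3a41b: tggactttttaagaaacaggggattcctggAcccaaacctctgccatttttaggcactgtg
Cyp3a44: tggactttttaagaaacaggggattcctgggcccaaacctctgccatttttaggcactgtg
Cyp3a11: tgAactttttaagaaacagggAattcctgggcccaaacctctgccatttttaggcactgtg
Cyp3a16: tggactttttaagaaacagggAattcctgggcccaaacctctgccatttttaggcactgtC
The second window, coding bases 319 to 366, lies at chr5:145709111-145709158 in Cyp3a41a, at chr5:145573697-145573744 in Cyp3a41b, at chr5:145794969-145795016 in Cyp3a44, at chr5:145869190-145869237 in Cyp3a11 and at chr5:145456128-145456175 in Cyp3a16. Capitals again mark bases that differ from Cyp3a41a, 1 in Cyp3a41b, 0 in Cyp3a44, 1 in Cyp3a11 and 9 in Cyp3a16, so in neither window do Cyp3a41a and Cyp3a44 differ.
Cyp3a41a: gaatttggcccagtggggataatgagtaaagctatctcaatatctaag
Cyp3a41b: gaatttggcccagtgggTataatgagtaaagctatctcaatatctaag
Cyp3a44: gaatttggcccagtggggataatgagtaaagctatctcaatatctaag
Cyp3a11: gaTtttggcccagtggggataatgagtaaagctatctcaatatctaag
Cyp3a16: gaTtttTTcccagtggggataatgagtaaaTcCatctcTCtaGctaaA

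The deposited posterior estimates, which average over the possible divisions of shared reads, show what this likeness leaves undecided. For Cyp3a41b they gave 8.32 ± 8.97 counts in pup 3, against 86.1 ± 77.2 counts in pup 1 (mean ± posterior SD). The deposited upper bound of its level was 0.493 TPM in pup 3, against 2.91 TPM in pup 1. For Cyp3a41a the bounds were 88.0 to 93.0 TPM in pup 3, against 15.2 to 19.2 TPM in pup 1, so in each library the lower bound of Cyp3a41a lay above the upper bound of Cyp3a41b. The difference between the pups does not rest on the division between these copies, since the sum of the pair was 92.3 TPM in pup 3, against 18.6 TPM in pup 1.

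**Figure D2:**
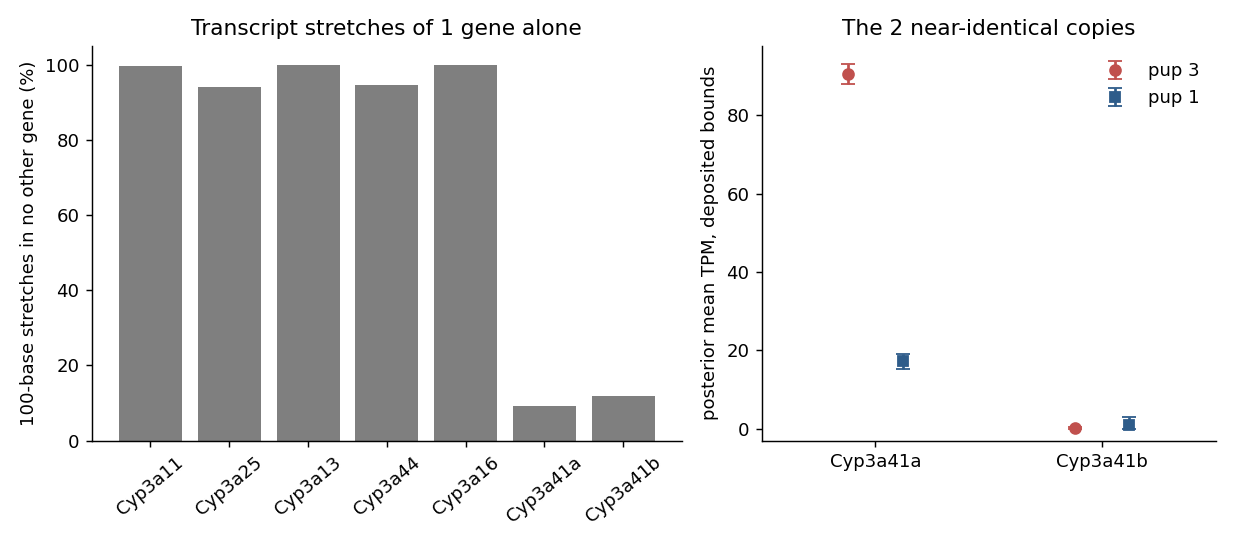
Left, percent of the 100-base stretches of each gene's main transcript that occur in no other gene's transcripts; right, deposited posterior mean TPM with its credibility bounds for Cyp3a41a and Cyp3a41b in pup 3 (red circles) and pup 1 (blue squares). Cyp3a41a and Cyp3a41b stand at 9.18% and 11.8% while the other 5 genes stand at 94.0% or more, and Cyp3a41b has an upper bound of 2.91 TPM at most.

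Cyp3a44, like Cyp3a41 known as female-predominant in adult mouse liver, lies at 145773983 to 145805874. It had 2075 expected counts (38.9 TPM) in pup 3, against 1583 expected counts (20.4 TPM) in pup 1, a mean of 29.6 ± 13.1 TPM. Its log2 ratio was 0.90, and its mean lies at the upper edge of the range of 10 to 30 TPM. The 2485 genes of that range had a median absolute log2 ratio of 4.87, and 71.0% of them were under 1 TPM in one of the libraries. The 1822 genes at 30 to 100 TPM had a median of 1.27. The labels give no sex for either pup. Xist, transcribed from the inactive X chromosome, had 3649 expected counts in pup 3, against 1.09 in pup 1. The Y-linked Ddx3y had 0 in pup 3, against 4869 in pup 1, and the Y-linked Eif2s3y had 0 in pup 3, against 2696 in pup 1. The other Y-linked genes of the list, Kdm5d and Uty, each had 0 in pup 3, against 1 in pup 1, so that 2 of the 5 sex-linked genes were under 1 TPM in both libraries. These sex-linked genes were added with their values known. Cyp3a25 was also higher in pup 3 (log2 ratio 2.12), while Cyp3a11 and Cyp3a13 were higher in pup 1. With 1 library per pup, sex, animal and amplification cannot be told apart, and a part of sex in the Cyp3a levels was not tested.

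Cyp3a16 was first described as a CYP3A form of fetal mouse liver. In these newborn livers it was nearly absent, with 30.3 expected counts (0.646 TPM) in pup 3, against 6.03 expected counts (0.0857 TPM) in pup 1. Of the 1631 stretches of 100 bases in its transcript, 2 also occurred in Cyp3a11, and 99.9% occurred in no other gene. The deposited bounds of its level ran from 0.434 to 0.890 TPM in pup 3 and from 0.0359 to 0.180 TPM in pup 1, and both lay under 1 TPM. The gene lies at 145436309 to 145469723, and its coding sequence is 92.7% identical to that of Cyp3a41a.

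The sequence just upstream of Cyp3a16 is close to that of its more abundant relatives. Over the 250 bases before the start that RefSeq gives, Cyp3a16 matched Cyp3a41a at 231 aligned bases and differed at 15, and it matched Cyp3a44 at 236 and differed at 10. Mean levels were 0.366 ± 0.396 TPM for Cyp3a16, 55.5 ± 52.1 TPM for Cyp3a41a and 29.6 ± 13.1 TPM for Cyp3a44. The windows are shown from RefSeq on GRCm38.p6, minus strand, at chr5:145720137-145720386 for Cyp3a41a, chr5:145805875-145806124 for Cyp3a44 and chr5:145469724-145469973 for Cyp3a16, with capitals where a base has no match in Cyp3a41a.
Cyp3a41a: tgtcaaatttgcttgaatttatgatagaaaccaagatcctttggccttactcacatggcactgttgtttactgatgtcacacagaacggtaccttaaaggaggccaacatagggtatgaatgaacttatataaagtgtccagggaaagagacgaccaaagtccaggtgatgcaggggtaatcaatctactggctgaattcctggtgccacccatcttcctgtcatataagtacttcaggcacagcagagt
Cyp3a44: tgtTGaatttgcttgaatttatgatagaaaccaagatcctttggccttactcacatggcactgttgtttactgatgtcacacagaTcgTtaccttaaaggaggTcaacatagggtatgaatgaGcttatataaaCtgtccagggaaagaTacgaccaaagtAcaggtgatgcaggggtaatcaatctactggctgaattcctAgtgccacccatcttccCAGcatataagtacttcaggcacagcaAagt
Cyp3a16: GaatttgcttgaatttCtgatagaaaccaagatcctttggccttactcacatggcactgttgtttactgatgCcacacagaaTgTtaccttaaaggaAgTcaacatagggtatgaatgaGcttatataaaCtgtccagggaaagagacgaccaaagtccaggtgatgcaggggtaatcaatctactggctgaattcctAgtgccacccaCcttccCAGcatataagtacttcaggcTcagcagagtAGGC
Cyp3a41b differed from Cyp3a41a at 1 of these 250 bases.

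Short motifs were searched on both strands in the windows of 300 bases around the RefSeq starts (250 before and 50 after), which all 7 genes have. RefSeq and GENCODE place the start of Cyp3a11 differently, so its distances hold for the RefSeq start alone. TATAAA occurred 122 bases before the start of Cyp3a41a, Cyp3a41b and Cyp3a44, 126 before that of Cyp3a16 and 234 before that of Cyp3a11, and 13.6% of the 32851 windows of all genes hold it. The nuclear receptor motif AGGTCA, which 16.3% of all windows hold, occurred 162 bases before the start of Cyp3a11 and 150 before that of Cyp3a44. In Cyp3a25 it occurred 176 bases before the start and, on the reverse strand, 155 before it. The related motif AGTTCA occurred, on the reverse strand, 142 bases before the start of Cyp3a11 and 130 before those of Cyp3a41a and Cyp3a41b, against 14.0% of all windows. Neither of these was in the window of Cyp3a16 or Cyp3a13. No window of the 7 held a direct repeat of these motifs with a spacer of 1, 3 or 4 bases or an everted repeat with a spacer of 6. CCAAT was in those of Cyp3a25 and Cyp3a13, as in 37.4% of all windows.

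Seen along the chromosome, the 6 clustered members span 573 kb and all lie on the minus strand. The abundant genes form its right part, with Cyp3a41a, Cyp3a44, Cyp3a11 and Cyp3a25 following each other among the Cyp3a genes with values, and Cyp3a16 and Cyp3a41b form its left part.

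**Figure D3:**
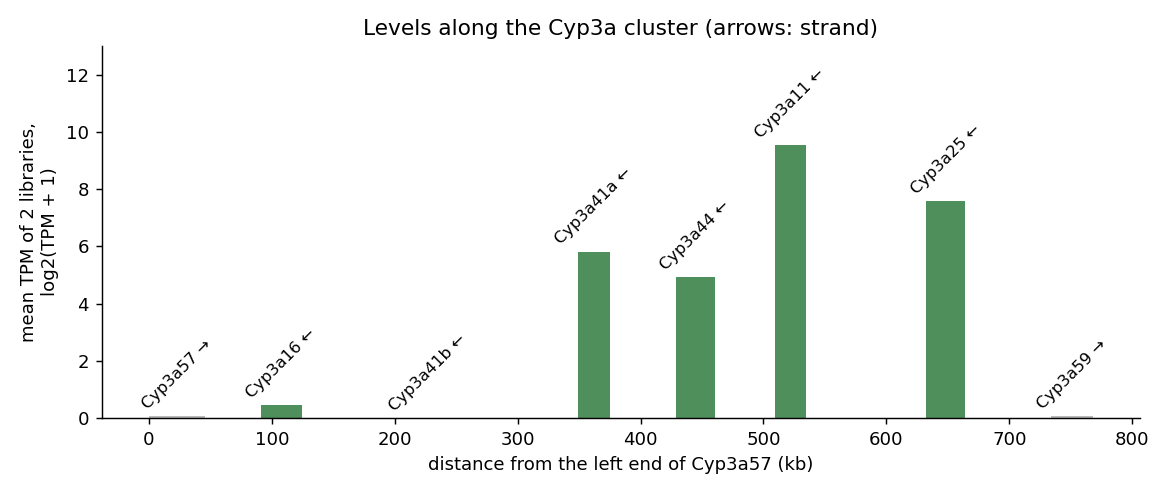
Mean level of the 2 libraries as log2(TPM + 1) for each gene of the Cyp3a cluster against its distance in kb from the left end of Cyp3a57; bar width is the gene's length and arrows give the strand. Cyp3a41a, Cyp3a44, Cyp3a11 and Cyp3a25 are high, and Cyp3a57, Cyp3a16, Cyp3a41b and Cyp3a59 stand at or near 0.

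The summed level of the family differed less between the pups than that of any of the 5 detected members. The 7 genes summed to 1059 TPM in pup 3, against 1159 TPM in pup 1 (1109 ± 70.8 TPM), which was 0.106% and 0.116% of endogenous TPM. The log2 ratio of the sum was -0.13, and 0.073 when the libraries were scaled by their spike-in totals, so it has no stable direction. Its division differed. Cyp3a11 held 53.2% of the sum in pup 3, against 78.6% in pup 1, and Cyp3a13 held 4.90% and 11.9% in pups 3 and 1. Cyp3a25 held 29.4% in pup 3, against 6.12% in pup 1, Cyp3a41a 8.72% and 1.61%, and Cyp3a44 3.67% and 1.76%. The 6 genes other than Cyp3a11 together had 495 TPM in pup 3, against 248 TPM in pup 1. Of the family's expected counts, Cyp3a11 took 56.4% in pup 3 (Wilson 95% interval 56.0 to 56.7%) and 77.3% in pup 1 (77.1 to 77.5%), which leave out the error of amplification.

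**Figure D4:**
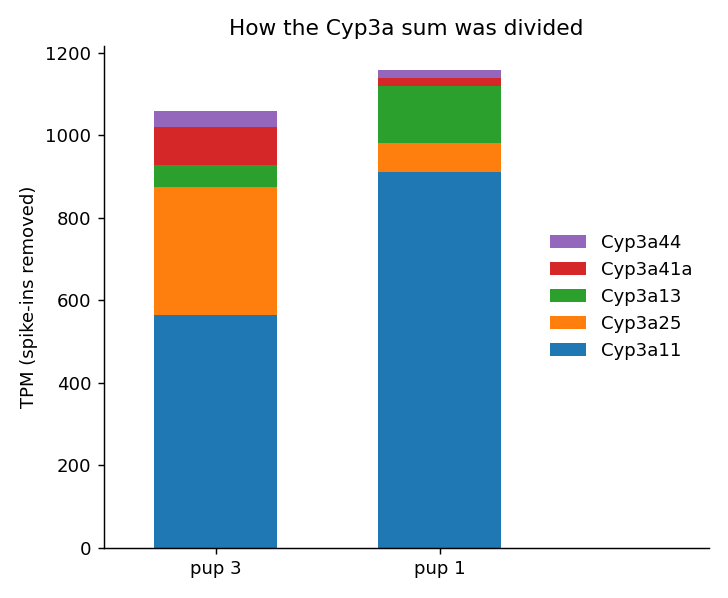
Stacked TPM of the 5 detected Cyp3a genes in pup 3 (left) and pup 1 (right), spike-ins removed. The bars reach nearly the same height, 1059 and 1159 TPM over all 7 genes, while Cyp3a11 fills 53.2% of the left bar and 78.6% of the right one.

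Differences between the pups were set beside those of all genes. Of the 5 detected members, Cyp3a25 and Cyp3a41a were 2-fold or more higher in pup 3 on the log2(TPM + 1) scale, where 23.6% of the 3555 genes detected in both libraries were. Only Cyp3a13 was 2-fold or more lower in pup 3, where 19.2% of those genes were. These shares leave out genes under 1 TPM in either pup. Among all genes at 30 to 100 TPM, the range of Cyp3a41a and Cyp3a13, 57.6% differed 2-fold or more in either direction. At 100 to 300 TPM, the range of Cyp3a25, 40.8% did. The median log2 ratio was 0.90 over the 5 members and 0.09 over the 3555 genes. With 1 library per pup, differences between animals and differences from the amplification of so little RNA cannot be told apart, and a count of 5 genes carries no result about the family.

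**Figure D5:**
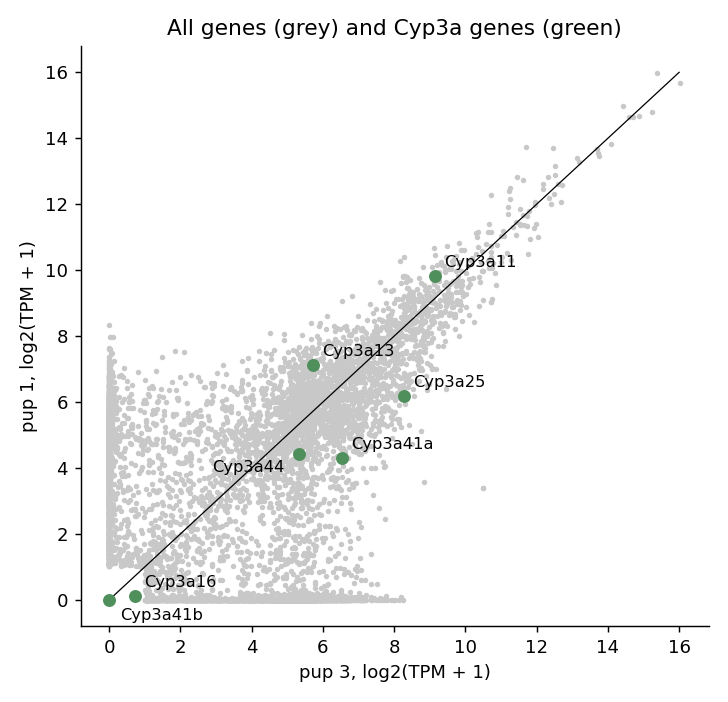
Level in pup 3 (x) and pup 1 (y) as log2(TPM + 1) for the 7678 genes at 1 TPM or more in either library (grey) and the 7 Cyp3a genes (green), with the line of equal levels. Cyp3a11 and Cyp3a13 lie above the line, Cyp3a25, Cyp3a41a, Cyp3a44 and Cyp3a16 lie below it, and Cyp3a41b is at the origin.

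Genes of the electron supply and heme of P450 enzymes were found in both pups. Of the 9 genes of this list, which also holds the receptor gene Ahr, 8 were at 1 TPM or more in both libraries, against 14.9% of protein-coding genes. These are levels of the whole tissue, erythroid cells included, and the part that came from hepatocytes was not tested. Cytochrome b5 (Cyb5a) had 1396 TPM in pup 3, against 1222 TPM in pup 1, the P450 reductase Por 351 and 473 TPM, and Pgrmc1, a heme-binding partner of P450 enzymes, 285 and 308 TPM. Fech, which inserts iron to complete heme, had 187 TPM in pup 3, against 182 TPM in pup 1. Cyb5b was 2-fold or more higher in pup 3 (39.0 TPM in pup 3, 7.64 TPM in pup 1). Alas1, the rate-limiting enzyme of heme synthesis, was 2-fold or more lower in pup 3 (79.7 TPM in pup 3, 182 TPM in pup 1), as was Hmox1, which breaks heme down (17.7 TPM in pup 3, 112 TPM in pup 1). Ahr, a receptor of the same list, had 5 expected counts in pup 3, against 0 in pup 1.

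The regulators known to act on CYP3A genes were detected in part. Of 24 such genes, 6 reached 1 TPM in both libraries, 4 in pup 3 alone, 8 in pup 1 alone and 6 in neither. Detection in 1 library alone was common among all genes: of those that reached 1 TPM in either library, 46.3% did so in both. Among protein-coding genes, 14.9% reached 1 TPM in both. Nr1i2, the gene of PXR, had 0 expected counts in pup 3, against 1553 (15.2 TPM) in pup 1, and Nr1i3, the gene of CAR, had 8.69 TPM in pup 3, against 116 TPM in pup 1. Ppara, the fatty acid receptor and the most abundant of the list by mean, had 244 TPM in pup 3, against 29.0 TPM in pup 1. The partner of PXR and CAR, Rxra, had 9 expected counts in pup 3, against 8754 in pup 1. Nfe2l2, which drives antioxidant genes, had 172 TPM in pup 3, against 63.5 TPM in pup 1, and the glucocorticoid receptor gene Nr3c1 had 0 and 61.5 TPM. Hnf4a, a master regulator of hepatocyte genes, had 4.56 TPM in pup 3, against 3.45 TPM in pup 1. Among all genes with a mean of 10 to 30 TPM, the range of Rxra, 71.0% were under 1 TPM in one of the libraries.

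Genes that handle steroids in the liver were present in part. Of 17 symbols 16 matched a listed gene. Of these, 7 reached 1 TPM in both libraries, 1 in pup 3 alone, 2 in pup 1 alone and 6 in neither. Among protein-coding genes, 14.9% reached 1 TPM in both. The sulfotransferase Sult1a1 had 385 TPM in pup 3, against 236 TPM in pup 1, and Ugt1a1, which conjugates bilirubin, had 367 and 248 TPM. Hsd17b2, which oxidises sex steroids, had 160 TPM in pup 3, against 119 TPM in pup 1, and Hsd11b1, which regenerates glucocorticoid, had 142 and 125 TPM. Hsd3b5, Srd5a1, Srd5a2, Akr1c6, Ugt2b1 and Ugt2b36 had no count in either pup.

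The genes whose level in the 2 libraries was nearest to that of Cyp3a11, by Euclidean distance on log2(TPM + 1) among 21467 protein-coding genes, were Rpl13 (574 TPM in pup 3, against 934 TPM in pup 1), Ptma (560 and 940 TPM) and Rpl13a (613 and 990 TPM). Their distances were 0.04, 0.05 and 0.17, over 2 libraries only.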

How the data were processed

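Livers of 2 newborn mice gave 1 library each, with 34792898 endogenous expected counts in pup 3 and 54817565 in pup 1. Per the deposited notes, values refer to mm10 and GENCODE M4 and derive from a transcriptome alignment; no source used here gives the aligner, the counting program or the use of strand. The authors deposited expected counts (estimated reads, with shared reads divided), and TPM and FPKM (per length and library; FPKM was not used). As deposited by the authors, posterior means, SDs and credibility bounds are treated as a score. The isoform percent deposited by the authors relates each transcript to the TPM of its gene. Read length was inferred as 100 from a length 99 nt above the effective length.

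Spike-ins (97) were removed and TPM rescaled. Identifiers were looked up in GENCODE M21 (GRCm38, the assembly of mm10) for names and coordinates; 98.0% of 43346 genes matched. The M21 transcripts of Cyp3a41a and Cyp3a41b are each 11 nt longer than in the tables; the main transcripts of the other 5 genes have equal lengths. Ratios are pup 3 over pup 1 on log2(TPM + 1), which understates those of low genes. No count model tested anything. Promoters came from RefSeq (GRCm38.p6). The window of Cyp3a11 is not printed because RefSeq and GENCODE place its start differently. Identities came from global alignment in Biopython 1.88. The ratio step was checked on simulated data. For the stretch step, only the finding of repeats within a made-up sequence was checked.

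Members and lists were chosen with earlier results of these data known. Named genes are the 7 members, their transcripts, up to 4 leading genes per list with Nr1i2 and Nr1i3, 3 nearest genes and neighbours within 500 kb at 10 TPM or more in both libraries; other genes named were chosen after their values were seen. Alternatives covered units, thresholds, pseudocounts, thinning, each library alone, and edgeR 4.0.16, DESeq2 1.42.0 and spike-in scaling. Other software was R 4.3.3, scipy 1.17.1, pandas 2.3.3, matplotlib 3.10.9, numpy 2.4.6 and Python 3.11.15.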

Additional observations from a re-analysis of the deposited data

How the results depend on the processing

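The number of detected members was 5 under all 7 alternatives, each library alone included. Merging Cyp3a41a with Cyp3a41b, among these, could not change the count because Cyp3a41b stood at 0. Posterior means were not used for this count, and the posterior mean of Cyp3a41b in pup 1 was 1.06 TPM. The summed level of 1109 TPM became 1931 CPM, which has no length correction, and 1185 TPM when scaled to protein-coding genes alone; it was 1059 to 1159 TPM in single libraries. The log2 ratio of the sum, -0.13, became -0.39 with edgeR TMM factors, -0.39 with DESeq2 size factors and 0.073 with spike-in totals. These scalings move every gene by -0.26, -0.26 and 0.20 on the log2 scale. The ratios of the 6 members with counts kept their sign under every alternative run, which says little about how firm they are. A pseudocount cannot change a sign, and the scalings move genes by less than the smallest of these ratios (0.60, Cyp3a16). The ratio of Cyp3a44 passed 2-fold with spike-in totals (1.10), and that of Cyp3a16 depended on the pseudocount (2.01 with 0.1 and 0.15 with 5). That of Cyp3a41b, 0 from TPM, was -0.83 from posterior means. The share held by Cyp3a11, 65.9% on average, was 53.2 to 78.6% in single libraries. No paired analysis was possible because the 2 libraries form 1 group. With n = 2 and 13 pg of RNA, levels are uncertain, most of all below about 100 TPM: 24.3% of genes at 30 to 100 TPM were under 1 TPM in one library. Higher up, 40.8% of genes at 100 to 300 TPM and 22.8% of those at 300 to 1000 TPM differed 2-fold or more between the libraries.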

Other observations

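The remaining protein-coding genes of the cluster, Cyp3a57 and Cyp3a59, which lie at its ends on the plus strand, were near absent. Cyp3a57 had 4 expected counts in pup 3, against 0 in pup 1, and Cyp3a59 had 5.42 in pup 3, against 1.1 in pup 1. Cyp3a59 shares 115 of the 1901 stretches of 100 bases of Cyp3a25-201, and no other gene shares any.

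Around the cluster, 24 protein-coding genes lie within 500 kb, of which 23 had values, and 15 of these were under 1 TPM in both libraries. Another 7 were at 1 TPM or more in both, where 14.9% of all protein-coding genes were. Most listed genes were under 1 TPM too, since 7678 of 43346 reached 1 TPM in either library. Of the 5 at 10 TPM or more in both, Atp5j2, a subunit gene of ATP synthase, had 538 TPM in pup 3, against 242 TPM in pup 1, and Bud31, a splicing factor gene, had 130 and 154 TPM. Zfp655 had 82.0 TPM in pup 3, against 48.8 TPM in pup 1, Arpc1b 39.9 and 35.4 TPM, and Arpc1a 19.8 and 81.3 TPM. Around Cyp3a13, 45 protein-coding genes lie within 500 kb and 43 had values, of which 29 were under 1 TPM in both libraries. Here too 7 were at 1 TPM or more in both, beside the same share of 14.9%. The most abundant was Azgp1, which encodes a secreted zinc-binding glycoprotein, with 920 TPM in pup 3, against 440 TPM in pup 1, followed by Cops6 (164 and 141 TPM) and the transferrin receptor gene Tfr2 (129 and 161 TPM). Mcm7, Lamtor4 and Gnb2 were also at 10 TPM or more in both pups.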
